A study of Mus musculus with 15 samples.

Results

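The genes described here encode the chains of collagen IV (*Col4a1*, *Col4a2*, *Col4a3*, *Col4a4*, *Col4a5* and *Col4a6*) and 4 partners of the basement membrane: the nidogens *Nid1* and *Nid2*, the heparan sulfate proteoglycan perlecan (*Hspg2*) and the laminin γ1 chain (*Lamc1*). They were taken by symbol from a table of 18279 genes: 9 of the 10 have a row there, and *Col4a6* was not analysed here. They were selected from genes whose difference between *Pbrm1* knockout and control tumors was already known, *Col4a4* being among the largest. Their values against control, in both clones together or in each, are therefore a description, and counts of them past a threshold are given beside the share of all genes without being read as a test.

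Bulk RNA sequencing was done on 15 subcutaneous tumors of Renca, a murine renal carcinoma cell line. The cells were injected in Matrigel, itself a basement membrane extract, into female BALB/c mice of 4 to 6 weeks. Tumors 1 to 5 came from control cells, called parental in the sample labels and control knockout cells in the methods of the study, tumors 6 to 10 from *Pbrm1* knockout clone 4, and tumors 11 to 15 from clone 18. *Pbrm1* encodes a subunit of the PBAF chromatin remodeling complex and was disrupted with CRISPR/Cas9. Each group is 1 line grown in 5 tumors, so the genotype and other differences between lines cannot be told apart, and p-values measure the spread between tumors of a line. Whether these mice received antibody is not stated in the labels.

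Collagen IV is the network-forming collagen of basement membranes, the thin sheets under epithelia and around vessels. Its chains assemble in fixed trimers: α1 with α2 in nearly all basement membranes, α3 with α4 and α5 in a few, above all in the kidney glomerulus, and α5 with α6 in others. Laminins form a second network, nidogens and perlecan connect the layers, and loss of α3, α4 or α5 causes Alport syndrome.

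The collagen IV genes lie head to head in pairs that are read in opposite directions from one shared region. In the GENCODE annotation of GRCm38, *Col4a4* (minus strand, chr1:82448423-82586849) and *Col4a3* (plus strand, chr1:82586921-82722059) start 71 bases apart, and *Col4a5* (plus strand, chrX:141475385-141689234) starts 1308 bases from *Col4a6* (minus strand, chrX:141165403-141474076). *Col4a1* (minus strand, chr8:11198423-11312826) and *Col4a2* (plus strand, chr8:11312805-11449287) overlap by 22 bases. The stretches beside the starts of the 3 genes with the lowest levels are shown because they are the region one pair shares and the region before the other. Both are the plus strand of GRCm38.p6 from RefSeq, at chr1:82586850-82586920 and chrX:141475169-141475384, and capitals mark a CCAAT box.
Between *Col4a4* and *Col4a3*: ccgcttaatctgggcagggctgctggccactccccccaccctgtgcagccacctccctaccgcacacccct
Before *Col4a5*: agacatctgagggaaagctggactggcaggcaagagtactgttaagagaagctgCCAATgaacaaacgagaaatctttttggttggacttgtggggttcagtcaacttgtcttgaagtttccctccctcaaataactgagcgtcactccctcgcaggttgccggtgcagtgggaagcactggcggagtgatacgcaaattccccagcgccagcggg
The stretch shared by *Col4a3* and *Col4a4* is 69.0% G or C. It holds 0 matches on either strand to a GC box, a CCAAT box or a TATA box, searched as exact letters. The GC box was searched as GGGCGG, which 20.7% of 32851 RefSeq promoter windows hold in the 71 bases before their start. The CCAAT letters are held there by 13.3% of windows. For the TATA box, searched as TATAAA, the share is 4.41%. The stretch before *Col4a5* is 52.3% G or C and holds 1 CCAAT box, as do 30.8% of windows in the 216 bases before their start. A GC box is held by 31.6% and a TATA box by 10.8% of windows over that length, and that stretch holds neither. The stretch ends at the GENCODE start, whereas the shares were taken before RefSeq starts. The RefSeq window of *Col4a5*, chrX:141475169-141475468, runs past the stretch and holds 1 GC box. These matches are a description of letters, and the 1 match within the stretches shown overlaps no other motif.

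Levels are given as normalized counts, read counts divided by a size factor for each library. The libraries held 32924414 to 49099168 reads on genes (median 40860659), so *Col4a1* rested on 11362 to 27569 reads in each control tumor. The reads carry no molecular identifiers, so counting errors cover counting only. The targeted gene *Pbrm1* was lower in all 10 knockout tumors, with a mean of 9012 ± 956 (SD, n = 5) in control, 2751 ± 213 (n = 5) in clone 4 and 2838 ± 210 (n = 5) in clone 18.

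*Col4a3*, *Col4a4* and *Col4a5*, the chains of the restricted trimer, had lower means in *Pbrm1* knockout tumors. The groups did not overlap for *Col4a3* and *Col4a4*, and overlapped for *Col4a5* and for the other 6 genes. Of the 9 genes, 3 passed an adjusted p of 0.05 (limma, adjusted over all 18250 genes tested) in knockout against control, all lower, where 22.1% of all genes passed. Their choice used this contrast, so nothing is read from that count. Between the 2 clones 0 of 9 passed, where 4.62% of all genes passed. In bulk tumors, fewer cells of a type and less RNA per cell cannot be told apart.

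**Figure D1:**
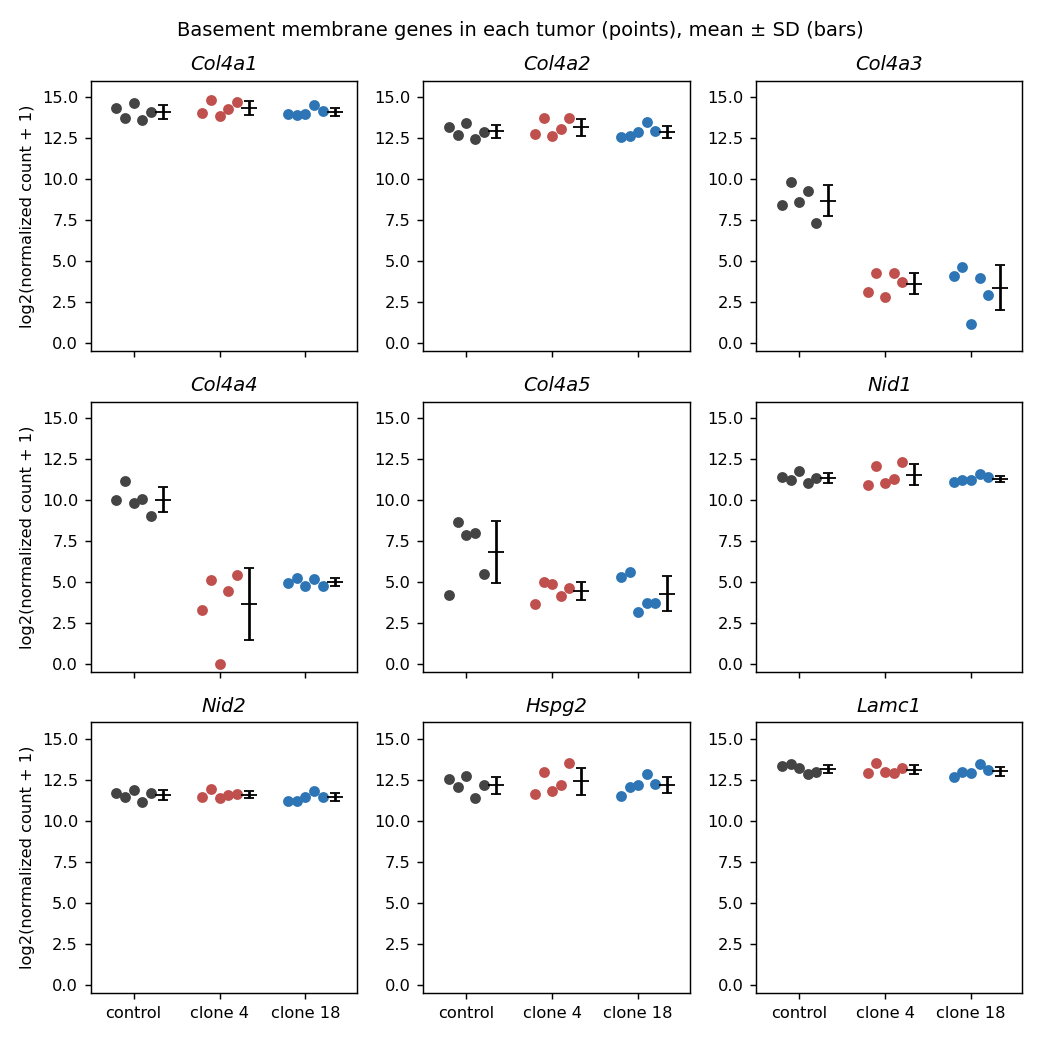
Level of each of the 9 genes, as log2(normalized count + 1), in every tumor (points, tumors left to right in number order) of the control, clone 4 and clone 18 groups, with the mean ± SD of each group as bars. The knockout tumors lie apart from the control tumors for *Col4a3* and *Col4a4*, partly so for *Col4a5*, and among them for the other 6 genes.

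*Col4a3* encodes the α3 chain, whose noncollagenous domain carries the Goodpasture antigen. Its normalized counts in control tumors 1 to 5 were 340, 904.5, 396, 635.3 and 161.8. In clone 4 (tumors 6 to 10) they were 7.7, 18.2, 6.0, 18.2 and 12.3, and in clone 18 (tumors 11 to 15) 16.3, 24.6, 1.3, 15 and 6.7. The lowest control tumor stood above every knockout tumor, so the groups did not overlap. The knockout mean of 12.6 was 2.59% of the control mean of 488, a log2 difference of −5.19 (SE 0.49) on the log2(normalized count + 1) scale. Against the same controls the log2 difference was −5.07 (SE 0.57) in clone 4 and −5.32 (SE 0.57) in clone 18. The knockout values rested on few reads, 118 in all 10 tumors together against 2467 in the 5 control tumors.

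*Col4a4*, its head-to-head neighbor, encodes the α4 chain. Its control values were 1041, 2268.8, 919, 1052.2 and 531.8. The clone 4 values were 8.7, 34.4, 0, 20.5 and 42.3, and the clone 18 values were 29.6, 36.9, 26.2, 36.1 and 25.7. Here too every knockout tumor lay below every control tumor, and clone 18 was the most even group (SD 0.24 on the log2 scale against 2.21 in clone 4). The 0 in tumor 8 allows up to 3 reads, or 2.98 normalized counts, at its depth. The knockout mean of 26.0 was 2.24% of the control mean of 1163 and the log2 difference was −5.71 (SE 0.68), with −6.37 (SE 0.73) in clone 4 and −5.04 (SE 0.73) in clone 18. Without tumor 8 the clone 4 difference was −5.45. Across all genes, 7.98% separated the knockout from the control tumors without overlap, in either direction.

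*Col4a5*, on the X chromosome, encodes the α5 chain, which also pairs with α6. Its control values were uneven, 17.4, 406, 231.8, 248.8 and 43.4. The clone 4 values were 11.6, 31.5, 28.8, 17.1 and 23.4, and the clone 18 values were 37.8, 48, 7.9, 12 and 12.3. Control tumor 1 lay within the knockout range and tumor 5 below the highest knockout value, so the groups overlapped, with 5 of 10 knockout tumors below all controls. The knockout mean of 23.0 was 12.2% of the control mean of 189 and the log2 difference was −2.45 (SE 0.61). It was −2.36 (SE 0.71) in clone 4 and −2.54 (SE 0.71) in clone 18. Tumor 1, the lowest control, made the difference smaller. Without it the pooled difference was −3.11, and those in clone 4 and clone 18 were −3.02 and −3.20.

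*Col4a1* encodes the α1 chain, the most abundant collagen IV transcript in these tumors. Its control values were 21260.6, 13922, 25565.1, 12731.4 and 17697.4, its clone 4 values 16713.6, 29851.3, 14993.9, 20344.8 and 27288.6, and its clone 18 values 15940.2, 15820.4, 15990.3, 24003.5 and 18169.8. The groups overlapped throughout, and no knockout tumor lay below all controls. *Col4a2*, the α2 chain that completes the common trimer, had control values of 9458.2, 6570.4, 11084.2, 5573.5 and 7610.6. Its clone 4 values were 6851.5, 13801.4, 6514.2, 8584.6 and 13517.9, and its clone 18 values were 6072, 6462, 7550.1, 11570.2 and 7974.3. Tumors 7 and 10 of clone 4 were the highest for both genes, and control tumor 4 was the lowest for both. The log2 difference of knockout from control was 0.13 (SE 0.18) for *Col4a1* and 0.12 (SE 0.21) for *Col4a2*. Their 95% intervals, a description of the spread between tumors, were −0.25 to 0.51 and −0.31 to 0.55.

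The nidogens bind collagen IV and laminin. *Nid1* ranged from 2069.6 to 3547 in control (median 2630.6), from 1974 to 5226.7 in clone 4 (median 2533.9) and from 2173.7 to 3038.1 in clone 18 (median 2403.3). *Nid2* ranged from 2239.9 to 3840.9 in control (median 3377.1), from 2665.8 to 3889.2 in clone 4 (median 2989) and from 2324.2 to 3561.4 in clone 18 (median 2815.6). The ranges overlapped for both genes, with log2 differences of knockout from control of 0.06 (SE 0.20) for *Nid1* and −0.08 (SE 0.13) for *Nid2*.

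*Hspg2* ranged from 2694.9 to 6855.6 in control (median 4650.1), from 3135 to 11853.6 in clone 4 (median 4629.7) and from 2885 to 7417.5 in clone 18 (median 4635). The group medians nearly coincided, and the top clone 4 value came from tumor 10, which was also highest for *Nid1*. *Lamc1*, a chain of most laminin trimers, ranged from 7463.8 to 11193.4 in control, 7708.8 to 11979.1 in clone 4 and 6632.2 to 11169.3 in clone 18. The log2 differences were 0.12 (SE 0.29) for *Hspg2* and −0.10 (SE 0.12) for *Lamc1*.

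**Figure D2:**
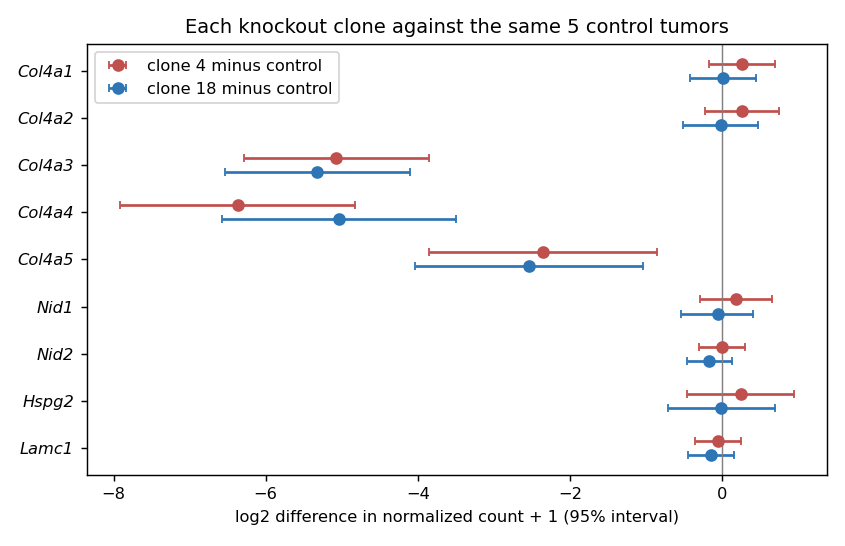
Log2 difference in normalized count + 1 (horizontal axis) of clone 4 (red) and clone 18 (blue) from the same 5 control tumors for each gene, with 95% intervals from limma as bars. In both clones *Col4a3*, *Col4a4* and *Col4a5* lie left of 0, and the other 6 genes lie near it. The genes were selected on this difference, so the intervals show the spread between tumors and are no test.

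Against control, the same 3 genes passed the threshold in clone 4, where 16.8% of all genes passed, and in clone 18, where 24.7% passed. These comparisons reuse the tumors on which the genes were selected and share their 5 control tumors, so nothing is read from the counts. In clone 4 *Col4a5* was the nearest to the threshold, with 2 of the 9 genes passing when limma was run without an intensity trend. The median log2 difference of the 9 genes was −0.08 in the pooled comparison, beside −0.02 over all genes.

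Clone 18 was then set against clone 4, a contrast in which the genes were tested. Selection on a difference of knockout from control may favor genes alike in both clones. A count of 0 is therefore not read as likeness of the clones. None of the 9 passed, beside 4.62% of all genes. The count was also 0 at an unadjusted p under 0.05 and 0 with edgeR and DESeq2 on the recovered reads, and the lowest adjusted p (limma) was 0.357, for *Col4a4*. The log2 difference of clone 18 from clone 4 was 1.32 for *Col4a4* (95% interval −0.22 to 2.86) and 0.41 without tumor 8. For *Col4a3* it was −0.25 (−1.46 to 0.96), turning to 0.30 without tumor 13, and for *Col4a5* it was −0.18 (−1.68 to 1.33). These intervals leave room for a difference of several fold between the clones at these low counts. They were narrower for the abundant genes, at −0.25 (−0.68 to 0.18) for *Col4a1*, −0.28 (−0.77 to 0.21) for *Col4a2* and −0.09 (−0.40 to 0.21) for *Lamc1*.

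Dividing by exon length allows the chains to be compared with each other. In control tumors the order of normalized counts per kb of exon was *Col4a1* at 2440 ± 709 (SD, n = 5), *Col4a2* at 1220 ± 335, *Lamc1* at 1130 ± 181, *Nid2* at 606 ± 119, *Nid1* at 385 ± 79.5, *Hspg2* at 341 ± 112, *Col4a4* at 110 ± 61.6, *Col4a3* at 48.9 ± 28.9 and *Col4a5* at 28.2 ± 23.9. Only the steps from *Col4a1* to *Col4a2* and from *Lamc1* to *Nid2* had ranges that did not overlap. The α3 and α4 chains were minor in the control tumors: together they made up 3.00%, 9.45%, 2.40%, 5.93% and 1.85% of the summed collagen IV level per kb in tumors 1 to 5. In the knockout tumors that share was 0.0934% ± 0.047 (SD, n = 10), from 0.0201% to 0.191%. The α5 share was 0.825% ± 0.778 (SD, n = 5) in control and 0.0933% ± 0.0681 in knockout tumors, and the 2 ranges overlapped.

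**Figure D3:**
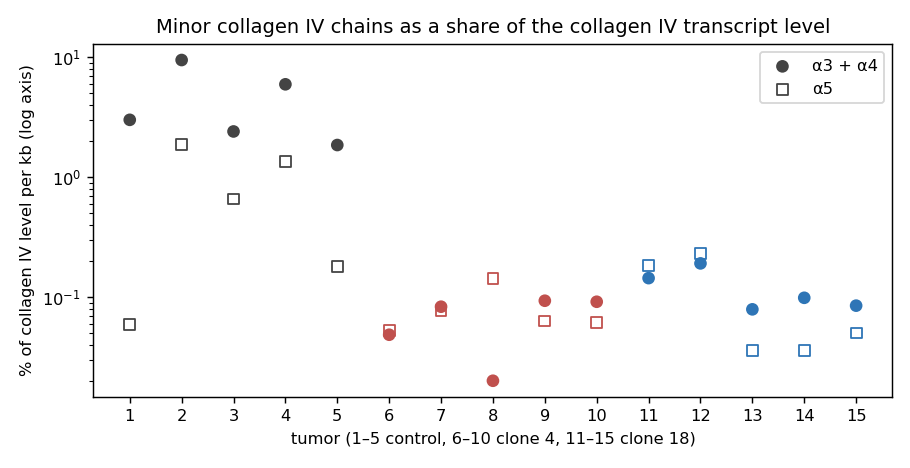
Share of the summed collagen IV level per kb (percent, log axis) contributed by α3 plus α4 (filled circles) and by α5 (open squares) in each tumor, colored by group. The α3 plus α4 share is at least 1.85% in every control tumor and at most 0.191% in every knockout tumor, and the α5 squares of control tumors 1 and 5 reach into the knockout range.

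The summed collagen IV level and the ratio of the common chains overlapped between the groups. The summed level per kb was 3850 ± 997 (SD, n = 5) in control, 4420 ± 1410 in clone 4 and 3610 ± 791 in clone 18. The per-kb ratio of *Col4a1* to *Col4a2* was 2.00 ± 0.0733 in control, 2.00 ± 0.148 in clone 4 and 2.05 ± 0.204 in clone 18. The α1 and α2 chains held 94.6% of the level in control tumors and 99.8% in knockout tumors. In control tumors *Col4a4* was 2.41 ± 0.604 times *Col4a3* per kb, a ratio that was not read in knockout tumors, where *Col4a3* fell to 1 read in tumor 13 and *Col4a4* to 0 in tumor 8.

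Across the 15 tumors, each value was centered on its group mean and set against the other genes. There were 36 pairs, with p-values from 100000 permutations within groups and Benjamini-Hochberg adjustment. *Col4a1* and *Col4a2* moved together (Pearson r = 0.97, permutation p = 1e-05, the smallest these permutations can give, adjusted p = 9e-05, Spearman rho = 0.94, permutation p = 1e-05). The r was 0.97 without tumors 3 and 7, the farthest from the median. *Col4a1* had r = 0.89 with each of *Nid1*, *Nid2* and *Hspg2* (permutation p = 4e-05, 1e-05 and 9e-05, adjusted p = 0.00021, 9e-05 and 0.0004, rho 0.90, 0.90 and 0.87, permutation p of rho 5e-05, 1e-05 and 0.00026). Without tumors 3 and 7 these were 0.85, 0.84 and 0.89. *Col4a1* and *Col4a3* had r = 0.08 (permutation p = 0.78, adjusted p = 0.87, rho −0.01, permutation p = 0.97), with 0.01 left without those tumors.

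*Col4a3* and *Col4a4*, which start from the same 71-base region, had r = 0.50 (permutation p = 0.0004, adjusted p = 0.0014) and rho = 0.76 (permutation p = 0.00095), with r = 0.60 without tumors 5 and 13. *Col4a3* and *Col4a5* had r = 0.64 (permutation p = 0.016, adjusted p = 0.035) and rho = 0.71 (permutation p = 0.0042), with r = 0.56 without tumors 5 and 13. The knockout points of these pairs rest on 0 to 39 reads each. With 5 tumors a group is too small for an r of its own.

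By the same measure, over 16493 genes with a mean of at least 10, the genes most like *Col4a1* were *Col4a2* (r = 0.97) and *RP24-167A12.4*, *Nos3*, *Cygb* and *Dchs1* (each r = 0.94, n = 15 tumors). *Nos3* encodes the nitric oxide synthase of endothelium. Those most like *Col4a4* were *Cacna1g* (0.90), *Thpo* (0.87), *Chpf2* (0.84), *Ptprh* (0.84) and *Star* (0.83), an order to which the 0 of tumor 8 contributes. These values describe likeness among the same libraries, with no test.

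Endothelial cells are a source of α1 and α2 chains in vessel walls, so each gene was set against the summed normalized count of 12 endothelial markers, in a family of 27 relations with 3 marker sums. The sum ranged from 11856 to 18985 in control tumors, 11712 to 19328 in clone 4 and 12600 to 15660 in clone 18. Of the 12 markers 1 passed the test in knockout against control, the endoglin gene *Eng*, which fell (log2 difference −0.48, adjusted p = 0.000877). The median log2 difference of the 12 was 0.08. *Esam* went the other way, at 0.23 (adjusted p = 0.0566), and passed as higher in clone 18 against control (0.28, adjusted p = 0.0461). Centered on group means, *Col4a1* had r = 0.95 with this sum (permutation p = 5e-05, adjusted p = 0.00045, rho 0.95, permutation p = 4e-05) and 0.95 without tumors 3 and 10. *Nid1* had r = 0.95 (permutation p = 5e-05, adjusted p = 0.00045, rho 0.94, permutation p = 0.00011, 0.95 without those tumors). *Col4a2* had r = 0.94, *Hspg2* 0.89 and *Nid2* 0.80 (permutation p = 5e-05, 0.00015 and 0.00011, adjusted p = 0.00045, 0.00081 and 0.00074, rho 0.90, 0.87 and 0.84, permutation p of rho 0.00016, 0.00046 and 6e-05). Without tumors 3 and 10 these were 0.93, 0.85 and 0.84.

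No such relation was detected for the minor chains. *Col4a3* had r = 0.01 (permutation p = 0.98, adjusted p = 0.98, rho −0.06, permutation p = 0.84) and 0.01 without tumors 3 and 10. *Col4a4* had r = 0.48 (permutation p = 0.21, adjusted p = 0.29, rho 0.26, permutation p = 0.43) and 0.45 without them, and *Col4a5* r = −0.12 (permutation p = 0.70, adjusted p = 0.79, rho −0.21, permutation p = 0.46) and −0.34 without them. *Lamc1* lay between, with r = 0.54 (permutation p = 0.049, adjusted p = 0.10, rho 0.50, permutation p = 0.084) and 0.61 without them.

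**Figure D4:**
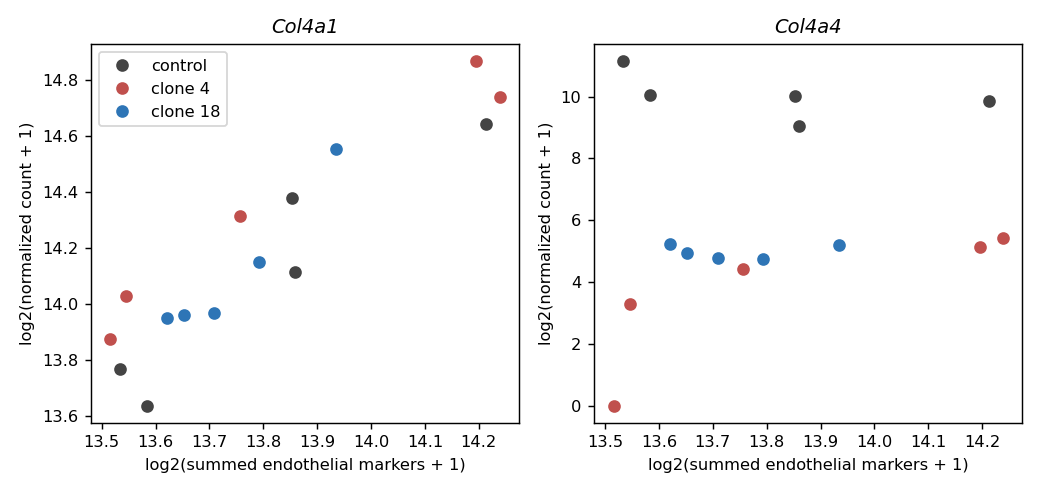
Log2(normalized count + 1) of *Col4a1* (left) and *Col4a4* (right) against log2(summed normalized count of 12 endothelial markers + 1) in the 15 tumors, colored by group. *Col4a1* rises with the marker sum across all groups, and *Col4a4* splits into control and knockout levels over the same range of marker sums.

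The other marker sums of the family gave relations too. With the summed pericyte and smooth muscle markers, *Nid1* had r = 0.85 (permutation p = 0.00096, adjusted p = 0.0043, rho 0.80, permutation p = 0.0048) and 0.78 without tumors 3 and 10. *Col4a1* had r = 0.81 (permutation p = 0.003, adjusted p = 0.0094, rho 0.79, permutation p = 0.0063) and 0.75 without them. *Col4a2* and *Hspg2* each had r = 0.77 (permutation p = 0.0031 and 0.0028, adjusted p = 0.0094 for both, rho 0.71 and 0.75, permutation p of rho 0.0096 and 0.0063), with 0.69 and 0.65 without them. These r cover the 15 tumors together. The lowest r in a single group of 5, too few for a reading, was −0.65 for *Nid1* and −0.51 for *Col4a1*. It was −0.43 for *Col4a2* and −0.59 for *Hspg2*. With the summed fibroblast markers, *Nid1* had r = 0.83 (permutation p = 0.0054, adjusted p = 0.015, rho 0.72, permutation p = 0.026) and 0.67 without tumors 6 and 10. *Hspg2* had r = 0.73 (permutation p = 0.014, adjusted p = 0.035, rho 0.61, permutation p = 0.056) and 0.48 without them. The lowest r in a single group was −0.0 for *Nid1* and 0.01 for *Hspg2*. For the 3 minor chains r with these 2 sums ran from −0.08 to 0.55, with adjusted p from 0.10 to 0.98. Whether the relation with endothelial markers is stronger than that with the others was not tested.

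For the other cell types the sums and counts of markers were compared between groups, with no relation to each gene computed. Of 5 podocyte markers in the table, cells that make the α3, α4 and α5 network in the kidney, 1 (*Synpo*) was lower in knockout tumors, with summed levels of 16403 to 17440 in control, 15014 to 17615 in clone 4 and 12490 to 16922 in clone 18. Control means were 758 for *Podxl*, 65.2 for *Wt1*, 2124 for *Synpo* and 726 for *Ptpro*. Most of the control sum thus came from the remaining marker. In clone 18 against control 3 of the 5 were lower, *Synpo* (log2 difference −0.40, adjusted p = 0.0117), *Podxl* (−0.46, 0.0452) and *Ptpro* (−0.55, 0.0358), and in clone 4 1 was. The median of the 5 in the pooled comparison was −0.42. Of those named here *Wt1* had the largest fall, from a mean of 65.2 in control to 12.6 in knockout tumors. Its groups overlapped and it did not pass (log2 difference −1.72, adjusted p = 0.0995). The defining podocyte gene *Nphs1* was not analysed here, so the list cannot show whether podocytes were present. Of 9 renal tubule markers 2 were higher and 0 lower in the pooled comparison, and the sums overlapped at 34900 to 40260 in control, 31547 to 35592 in clone 4 and 31401 to 40549 in clone 18, with *Slc12a1* and *Slc12a3* under a mean of 10. Against control 2 were higher and 0 lower in clone 4, and 2 were higher and 1 lower in clone 18. Of 10 pericyte and smooth muscle markers 1 was higher (sums of 12377 to 22067, 14812 to 25069 and 18327 to 19390), and of 10 fibroblast markers, the other list set against each gene, 0 passed with limma in the pooled comparison (52383 to 86307, 20150 to 193997 and 63590 to 127961).

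In other lists several markers were lower in knockout tumors. Of 6 macrophage markers 4 were lower, with sums of 71246 to 93586 in control, 55960 to 70438 in clone 4 and 51385 to 69192 in clone 18. In clone 18 against control 5 of these were lower and 1 was higher. *Cd68* was 13739.3 to 18219.1 in clone 18 against 10674.4 to 14233.8 in control. Of 6 T cell markers 3 were lower, with sums of 174 to 1075, 187 to 306 and 125 to 232. Of 5 Schwann cell markers 2 were lower (337 to 512, 212 to 382 and 238 to 352), *Sox10* among them and at a mean under 10. Of 5 adipocyte markers 1 was lower (317 to 514, 221 to 1410 and 358 to 644), of 3 keratinocyte markers 1 was lower (4 to 14, 0 to 8 and 0 to 20), and of 7 skeletal muscle markers 0 passed (112 to 216, 82 to 1214 and 113 to 1957). A mean under 10 was found for 3 of the adipocyte markers and all 3 keratinocyte markers. The part of these cell types in the levels of *Col4a3*, *Col4a4* and *Col4a5* was not tested.

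Reads of overlapping genes bear on a few values, since the strand setting of the counting is not given in the sources used here. *C430014B12Rik* overlaps *Col4a3* on the other strand over 30132 bases, and its log2 difference was 0.26 (SE 0.21, adjusted p = 0.408), with means of 74.7 in knockout and 60.1 in control tumors. Reads in the shared stretch cannot be told apart from those of *Col4a3* without strand.

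The other genes within 500 kb of the shared *Col4a3* and *Col4a4* start give the local surroundings. Of 8 neighbors in the table, *Slc19a3*, a thiamine transporter gene starting 451.5 kb from *Col4a3*, was the one that passed in the pooled comparison (log2 difference −2.61, SE 0.59, adjusted p = 0.00431). Its control values were 9.3, 35.2, 17.6, 15.7 and 3.2 and its knockout mean was 2.02, so it was a gene of low level in every tumor, and 7 of 10 knockout tumors lay below all controls. The nearer genes did not pass. *Rhbdd1* had a log2 difference of −0.10 (adjusted p = 0.419), *Mff* of −0.07 (0.342), *Irs1* of 0.24 (0.485) and *Agfg1* of −0.18 (0.0834), and *Gm19552* and *Gm28941* of −0.85 (0.257) and −0.33 (0.653), with *C430014B12Rik* as above. *Agfg1* passed in clone 18 alone (−0.27, adjusted p = 0.00858), and its difference between the clones was −0.19 (adjusted p = 0.145).

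Beyond these genes, 4 lists of basement membrane genes were examined: laminin chains, other components, enzymes of collagen synthesis and crosslinking, and receptors. The lists were also chosen with earlier results of these data known. Their counts and adjusted p-values against control, here and for each list below, are therefore a description. In knockout against control 17 of 68 measured genes passed, 7 higher and 10 lower, beside 22.1% of all genes, with a median log2 difference of −0.02 against −0.02 over all genes. In clone 4 there were 15 (5 higher, 10 lower) and in clone 18 there were 18 (6 higher, 12 lower).

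Among 11 laminin chains and relatives 2 passed and both were lower. *Lamb3* encodes the β3 chain, found in laminin of epithelial basement membranes together with the α3 chain. *Lamb3* was 102.1, 732.8, 485, 443.7 and 148 in control tumors, 3.9, 6.7, 6.0, 4.6 and 15.6 in clone 4, and 27.6, 13.5, 11.8, 30.1 and 30.2 in clone 18. All knockout tumors lay below all controls, and it fell by 4.54 on the log2 scale (SE 0.53, adjusted p = 1.21e-05). The α3 chain gene *Lama3* had a log2 difference of 0.28 (SE 0.26, adjusted p = 0.498), with means of 60.8 in knockout and 49.9 in control tumors. The median of the list was −0.01.

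Of 21 other components 3 passed, all lower, and the median was −0.11. *Smoc1*, a matricellular protein of basement membranes, was 59.2 to 173.5 in control tumors and 0 to 7.9 in knockout tumors and fell by 5.27 (SE 0.54, adjusted p = 2.51e-06). The hemicentin gene *Hmcn2* fell by 1.22 (adjusted p = 0.0132) with overlap between groups, and did not pass without control tumor 2 (−0.96). The fibulin gene *Fbln1* fell by 0.82 (adjusted p = 1.64e-05), from a mean of 16702 to 9461.

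Of 21 genes of collagen synthesis and crosslinking 5 were higher and 2 lower, with a median of 0.14. *P4ha1*, a prolyl 4-hydroxylase subunit, rose by 0.38 (adjusted p = 0.0142) and the lysyl oxidase relative *Loxl3* by 0.34 (adjusted p = 0.00648). The prolyl 3-hydroxylase gene *P3h1* fell by 0.32 (adjusted p = 0.0103) and the lysyl hydroxylase gene *Plod1* by 0.24 (adjusted p = 0.0464), the latter at the edge of the threshold.

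Of 15 receptors 2 were higher and 3 lower, with a median of −0.11. *Itga1*, whose integrin α1β1 binds collagen IV, rose by 0.85 (SE 0.09, adjusted p = 5.39e-06), from 2445.6 to 3909.6 in control to 4855 to 6888.8 in knockout tumors. *Adgrg6*, an adhesion receptor that binds collagen IV and laminin, rose by 1.28 (SE 0.20, adjusted p = 0.000179), from a mean of 427 to 1071. The laminin receptor genes *Bcam* and *Itga7* fell by 2.29 (adjusted p = 0.0012) and 0.77 (adjusted p = 0.00995). *Itga1* and *Adgrg6* lay above all controls in 10 of 10 knockout tumors.

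**Figure D5:**
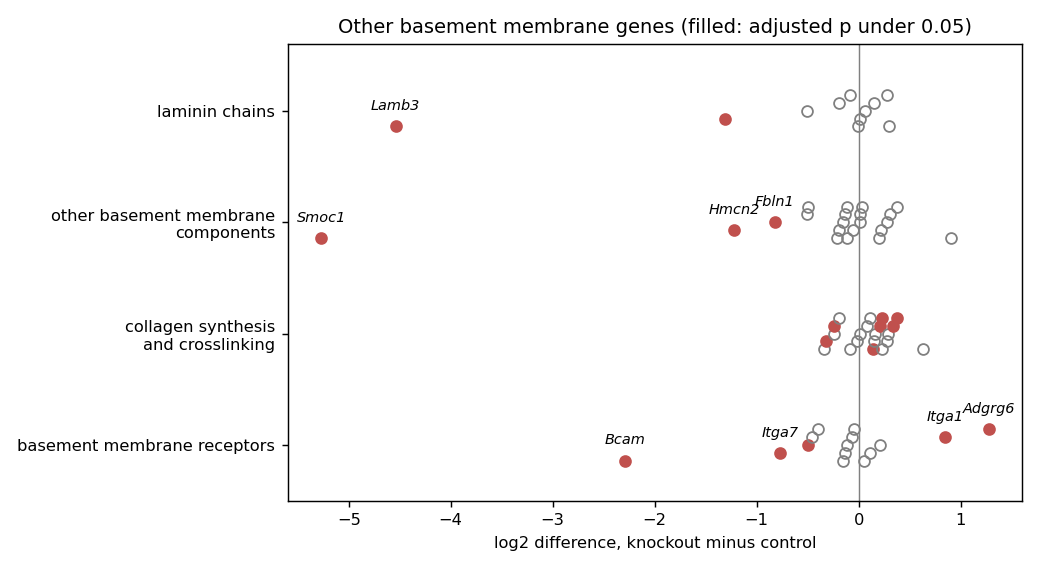
Log2 difference of knockout from control tumors (horizontal axis) for each gene of the 4 basement membrane lists (rows), filled where the adjusted p was under 0.05. *Lamb3* and *Smoc1* lie farthest left, *Adgrg6* and *Itga1* farthest right among the filled points, and most of the other points lie near 0.

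Of the same 68 genes 5 differed between the clones, beside 4.62% of all genes. *Ecm1* was higher in clone 18 by 0.59 (adjusted p = 0.0244) and *Tinagl1* by 0.31 (adjusted p = 0.0313), both extracellular matrix proteins. *P3h2*, a prolyl 3-hydroxylase acting on collagen IV, was 1307.9 to 1843.3 in clone 18 and 2085.6 to 3327.3 in clone 4 (log2 difference −0.68, SE 0.12, adjusted p = 0.00214). *Itga7* (−0.87, adjusted p = 8.3e-05) and *Adgrg6* (−0.77, adjusted p = 0.00284) were also lower in clone 18. In all 5 genes the clones did not overlap. The share of all genes without overlap between the clones was not computed, so nothing is read from that.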

How the data were processed

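Total RNA of 15 tumors was sequenced, 5 for each of 3 groups. The authors used TopHat2 for alignment (mm10), HTSeq for gene counts and DESeq for normalization, with versions, annotation and strand setting not given in the sources used here. The deposited signal values are these normalized counts, rounded to 0.1, and 0 columns could not be assigned to a tumor. Values up to 8000 were whole multiples of 1 read (100.0% within 0.1 read), which gave back the reads. The tumors of a group differed beyond sampling noise in all 30 pairs (chi-square per degree of freedom 17.69 to 164.24).

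The main test was limma 3.58.1 with trend in R 4.3.3 on log2(normalized count + 1), over 18250 genes above 0 in any tumor, with Benjamini-Hochberg adjustment and a threshold of 0.05. Pooled knockout was compared with control in a fit of 2 groups, and the clones in a fit of 3 groups. Alternatives were 2 count models run on the recovered reads (edgeR 4.0.16, DESeq2 1.42.0), pseudocounts of 0.1 and 5, a mean of at least 10, limma without trend, 2 other scalings, and each tumor left out. The code was tested on simulated data.

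The members and lists were chosen with earlier results of these data known. The text names every member, in each list up to 4 genes with the largest difference among those passing with a mean of at least 10 (up to 3 between clones), neighbors within 500 kb, and the 5 genes most like *Col4a1* and *Col4a4*. 1 gene of the laminin list that the rule takes is not reported here. *Lama3*, *Eng*, *Esam*, *Synpo*, *Podxl*, *Ptpro*, *Wt1*, *Sox10*, *Cd68*, *Slc12a1* and *Slc12a3* were named after their values were seen. The marker lists (endothelial, pericyte and smooth muscle, fibroblast, podocyte, renal tubule, Schwann cell, skeletal muscle, adipocyte, keratinocyte, macrophage and T cell) were summed per tumor. Levels per kb used merged exons of GENCODE M21 on GRCm38, in which 96.7% of the table's symbols matched once. RefSeq promoter windows were found for 7 of the 10 members.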

Additional observations from a re-analysis of the deposited data

Results flagged for a closer look

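In clone 18, tumor 14 stood apart from the other 4 tumors for *Col4a1*, with 24003.5 normalized counts against 15820.4 to 18169.8. It was the 1 tumor found apart in 45 sets of values examined, each from 1 group and not all of them gene levels. Chance gives 5% of such sets, or 2.25. Its endothelial marker sum was also the highest of clone 18, at 15660.

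For 5 genes of the basement membrane lists the difference from the shared controls was unequal in the clones, by the direct limma test of clone 18 against clone 4. In that test 4.62% of all genes passed. Each clone is 1 line, so this compares the lines. The log2 differences were −0.77 for *Adgrg6*, 0.59 for *Ecm1*, −0.87 for *Itga7*, −0.68 for *P3h2* and 0.31 for *Tinagl1*. *Adgrg6* was above control in both clones (1.66 in clone 4, 0.89 in clone 18) and *Itga7* below it in both (−0.34 and −1.21). *P3h2* passed against control in clone 18 (−0.58), *Tinagl1* in clone 4 (−0.36), and *Ecm1* in neither (−0.41 in clone 4, 0.18 in clone 18).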

How the results depend on the processing

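No paired analysis was possible because the tumor numbers run from 1 to 15 and no number is shared between groups. Among the tested genes named, 30 combinations of gene and alternative lost the threshold, 17 of them for *Plod1* and the rest for *Hmcn2*, *Ecm1* and *Tinagl1*, and none reversed. Between clones, DESeq2 called 1359 genes of all genes (limma 844) and 8 of the 68 pathway genes (limma 5), and limma without trend called 3. Leaving out 1 tumor gave 3 to 7 of the 68, with 3 without tumor 9 or tumor 15, and 632 to 896 of all genes. Of the 9 genes, 2 or 3 passed in clone 4 against control when 1 tumor was left out (2 without tumors 2, 3, 4, 6 or 9) or limma was run without trend, *Col4a5* being the one lost, and 3 in clone 18 and in the pooled comparison under every alternative run. The pooled log2 difference of *Col4a4* ran from −6.08 to −5.29 and that of *Col4a3* from −5.36 to −4.71 over tools, scalings and pseudocounts. Depth limits the knockout levels of *Col4a3*, *Col4a4* and *Col4a5*, at 0 to 39 reads a tumor.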

Other observations

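Control tumors 1 and 5 were the lowest of the 5 for several genes at once, a pattern chosen after the values were seen and not tested. *Col4a5* was 17.4 and 43.4 there against 231.8 to 406 in tumors 2, 3 and 4. *Lamb3* was 102.1 and 148 against 443.7 to 732.8, and *Bcam* 148.5 and 144.9 against 661.2 to 1191.7. *Slc19a3* was 9.3 and 3.2 against 15.7 to 35.2. *Col4a3* was also lowest in these tumors, at 340 and 161.8 against 396 to 904.5, whereas *Col4a4* was lowest in tumors 3 and 5.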
